A study of Sus scrofa with 14 samples.

Results

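The genes described here, 8 in number and of 6765 named on the array, were grouped as genes of trophoblast, the outer cell layer of the conceptus that forms the placenta. DPPA5 among them is known from mouse pluripotent cells and germ cells. The 8 are PAG6, PLET1, DPPA5, GATA3, TFAP2C, HAND1, PEG10 and PLAC1, and they were followed over 14 uterine samples of pregnant sows. They were taken by symbol, as every probe set whose only gene symbol in the platform annotation was 1 of these 8, which gave 17 of the 23999 probe sets tested. Samples came from Iberian x Meishan F2 sows slaughtered at days 30 to 32 of a pregnancy that was the fifth of each, 5 classed as high prolificacy and 9 as low prolificacy, with 1 Affymetrix porcine array per sow. The labels name no treatment, and breed cross, parity and stage were the same in both. The labels do not say whether fetal membranes were taken off the uterus, or how far from a conceptus a sample lay. Arrays are called high 1 to high 5 and low 1 to low 9 after their labels.

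The pig placenta is noninvasive: the trophoblast of the chorion lies against the uterine epithelium without breaking through it, and it secretes steroids, cytokines and glycoproteins toward the mother. Trophoblast identity is set by transcription factors of the GATA, AP-2 and basic helix-loop-helix families, and the pregnancy-associated glycoproteins are secreted products of the trophoblast of pigs and ruminants. Messenger RNA of such genes in a uterine sample can be carried by conceptus cells or by maternal cells, and in whole-tissue RNA fewer cells of a type and less RNA per cell cannot be told apart.

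PAG6 ranged 229-fold over the 14 arrays, and 9 of the other 16 probe sets rose with it, where 0.446% of all tested probe sets moved with PAG6. Of the 9, 2 were further PAG6 probe sets and 7 came from PLET1, DPPA5, GATA3 and HAND1. PEG10, PLAC1 and TFAP2C did not pass that test. The 8 genes were chosen with earlier results of these data known, so shares of all tested are given as background only. Array high 4 was the highest array for 15 of the 17 probe sets, against 7.12% of all tested, and in 7 of the 17 it stood at least 1 log2 unit above every other array, against 0.921% of all tested. Between high and low prolificacy 0 of the 17 probe sets passed limma's test (2 at an unadjusted p under 0.05), where 7.85% of all tested passed. All values below are log2 levels, so 1 unit is a doubling, and a level is compared only within its own probe set. Probe sets of a gene are numbered from the brightest.

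PAG6 codes for a pregnancy-associated glycoprotein, a secreted relative of the aspartic proteases. Its brightest probe set had levels of 10.74, 3.86, 4.33, 11.43 and 6.21 in high 1 to high 5, against a lowest level of 3.60, a median of 5.24 and a highest of 10.89 in low prolificacy. High levels occurred in both groups, in high 4, low 4 and high 1, and the 2 groups overlapped over nearly the whole range. Below these 3 arrays came low 5 at 8.74, low 6 at 8.03 and low 1 at 7.18, and the remaining 8 arrays lay at 6.21 or lower. The largest gap between neighbouring levels was 2.01, 25.6% of the range, between low 5 and the 3 highest arrays, and the next largest was 0.97. Whether the 3 highest arrays form a cluster of their own was not tested, and relations to PAG6 are given below with and without them.

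**Figure D1:**
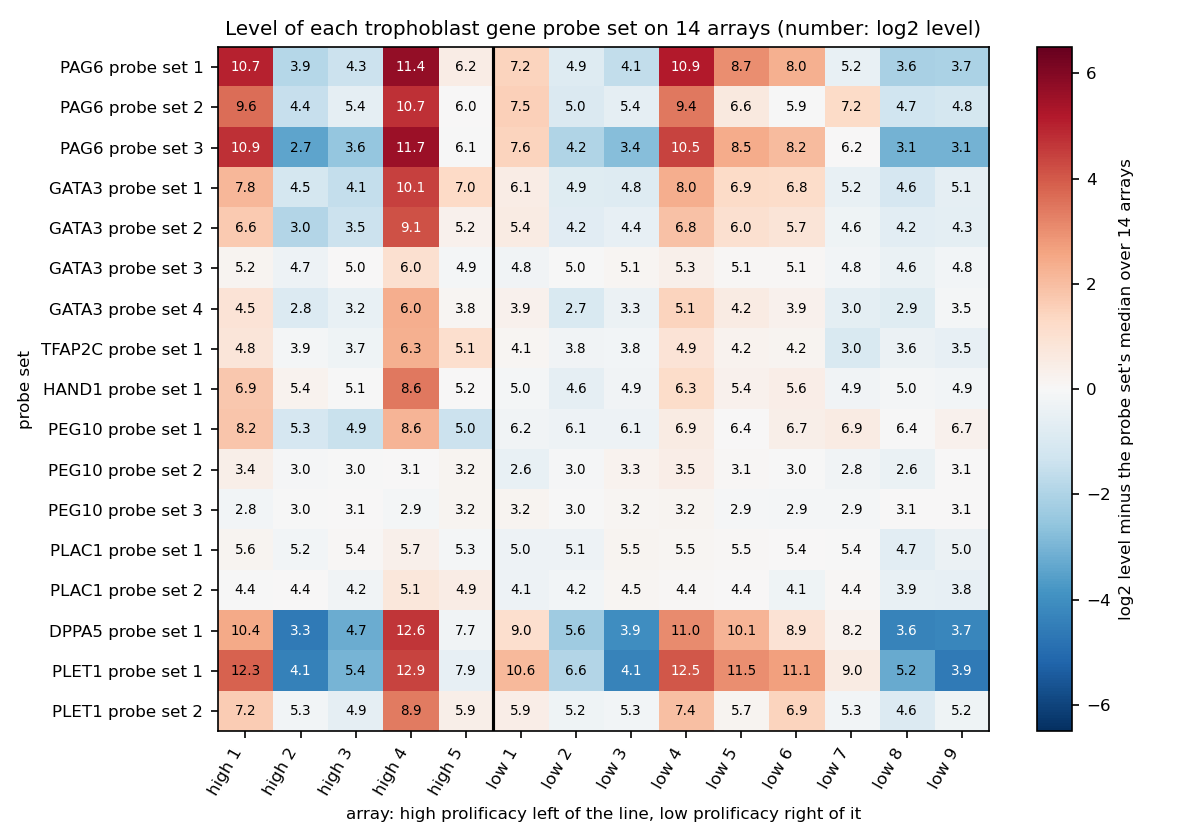
Log2 level of each of the 17 probe sets (rows) in each of the 14 arrays (columns), high prolificacy on the left and low prolificacy on the right, printed in each cell to 1 decimal and coloured by its difference from the probe set's median over the 14 arrays. High 1, high 4 and low 4 stand out in most rows from PAG6, GATA3, DPPA5 and PLET1, and the PEG10 row of probe set 1 splits the high prolificacy arrays.

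PLET1, placenta expressed transcript 1, is a surface protein named for its expression in placenta. Its brightest probe set had levels of 12.31, 4.08, 5.45, 12.87 and 7.92 in high 1 to high 5, against a lowest of 3.88, a median of 8.99 and a highest of 12.49 in low prolificacy. As for PAG6, the order began with high 4, low 4 and high 1. Low 9, high 2 and low 3 were lowest, and the groups overlapped. The second PLET1 probe set had levels of 7.16, 5.28, 4.91, 8.85 and 5.86 in high 1 to high 5, against 4.61, 5.31 and 7.43 as the lowest, median and highest in low prolificacy. Its 3 highest arrays were the same, and high 4 stood 1.42 above low 4.

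DPPA5, an RNA-binding protein with a KH domain known from mouse pluripotent cells and germ cells, had levels of 10.40, 3.31, 4.72, 12.58 and 7.68 in high 1 to high 5, against a lowest of 3.58, a median of 8.17 and a highest of 10.99 in low prolificacy. High 4 was the highest array, followed by low 4 and high 1, and high 2 was the lowest. Again the groups overlapped.

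GATA3, a zinc finger transcription factor of trophectoderm that T cells also use, was measured by 4 probe sets. The brightest had levels of 7.80, 4.53, 4.09, 10.07 and 6.96 in high 1 to high 5, against a lowest of 4.55, a median of 5.17 and a highest of 8.02 in low prolificacy. The second had levels of 6.59, 3.01, 3.48, 9.06 and 5.18 in high 1 to high 5, against 4.18, 4.61 and 6.82 as the lowest, median and highest in low prolificacy. In both, high 4 was more than 2 units above low 4, the next array, while high 2 and high 3 were the lowest of all 14. Probe set 3 moved over 4.58 to 6.04 and probe set 4 over 2.67 to 6.02, each with high 4, low 4 and high 1 on top in that order.

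HAND1, a basic helix-loop-helix factor needed in the mouse for trophoblast giant cells and extraembryonic mesoderm, had levels of 6.89, 5.36, 5.11, 8.57 and 5.17 in high 1 to high 5, against a lowest of 4.57, a median of 5.01 and a highest of 6.34 in low prolificacy. Apart from high 4, high 1 and low 4, the arrays lay between 4.57 and 5.57. TFAP2C, the AP-2 gamma factor that maintains trophoblast in the mouse, had levels of 4.76, 3.86, 3.70, 6.28 and 5.09 in high 1 to high 5, against 3.01, 3.81 and 4.91 as the lowest, median and highest in low prolificacy. High 4 was the highest array for TFAP2C and high 5 the next, and the groups overlapped for both factors.

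PEG10, a paternally expressed gene of retrotransposon origin that the mouse placenta needs, gave another order. Its brightest probe set had levels of 8.16, 5.29, 4.94, 8.57 and 5.00 in high 1 to high 5, against a lowest of 6.06, a median of 6.41 and a highest of 6.94 in low prolificacy. High 1 and high 4 lay above all 9 low prolificacy arrays, and high 2, high 3 and high 5 lay below all 9. The other PEG10 probe sets were dim, between 2.58 and 3.51 and between 2.84 and 3.23 over the 14 arrays. PLAC1, an X-linked placental protein of the cell surface, varied over 4.69 to 5.72 in probe set 1 and over 3.83 to 5.13 in probe set 2, with high 4 highest in both. No detection calls were used, so whether these dim levels lay above background is not known.

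The study compared high with low prolificacy. In limma, 0 of the 17 probe sets passed an adjusted p of 0.05 and 2 had an unadjusted p under 0.05, where 7.85% of all tested probe sets passed the adjusted threshold (3.5% higher and 4.35% lower in high prolificacy) and 5073 the unadjusted one. In all 17 the groups overlapped, and 2.64% of all tested probe sets had groups that did not. The mean was higher in high prolificacy for 15 of the 17 and lower for 2, where 56.7% of all tested were higher, and the median difference, high minus low, was 0.46 against 0.04 over all tested. Without high 4 it was higher for 9 and lower for 8, where 57.1% of all tested were higher, with a median difference of 0.03 against 0.04 over all tested. Limma's adjusted p lay between 0.215 and 0.961.

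The smallest p-values belonged to PLAC1 and TFAP2C. The mean of PLAC1 probe set 2 was 4.59 ± 0.39 over the 5 high prolificacy arrays and 4.22 ± 0.25 over the 9 low prolificacy arrays (SD), and high minus low was 0.37 ± 0.17 (SE, limma adjusted p = 0.215). That of TFAP2C was 4.74 ± 1.05 over the high and 3.90 ± 0.54 over the low prolificacy arrays (SD, n = 5 and 9), with a difference of 0.84 ± 0.39 (SE, limma adjusted p = 0.225). For the steeply varying genes the spread within a group was far larger than the difference. For PAG6 probe set 1 the means were 7.32 ± 3.56 over the high and 6.26 ± 2.57 over the low prolificacy arrays (SD, n = 5 and 9), and they differed by 1.06 ± 1.49 (SE, limma adjusted p = 0.765). That difference was 0.03 without high 4 and 0.20 without high 1. PLET1 probe set 1 differed by 0.26 ± 1.81 (SE, limma adjusted p = 0.961), and DPPA5 by 0.63 ± 1.65 (SE, limma adjusted p = 0.886). With standard errors of this size, a difference of several-fold in either direction was not detectable with these arrays.

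The sign of the difference rested on high 4 for several of them. Without high 4 it was -0.58 for DPPA5, -0.83 for PLET1 probe set 1, -0.24 for PAG6 probe set 3 and -0.50 for GATA3 probe set 2. HAND1, at 1.03 ± 0.50 (SE, limma adjusted p = 0.251) with all arrays, was 0.44 without high 4. TFAP2C was 0.45 without high 4. Under the alternatives run, 0 of the 17 passed the test.

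**Figure D2:**
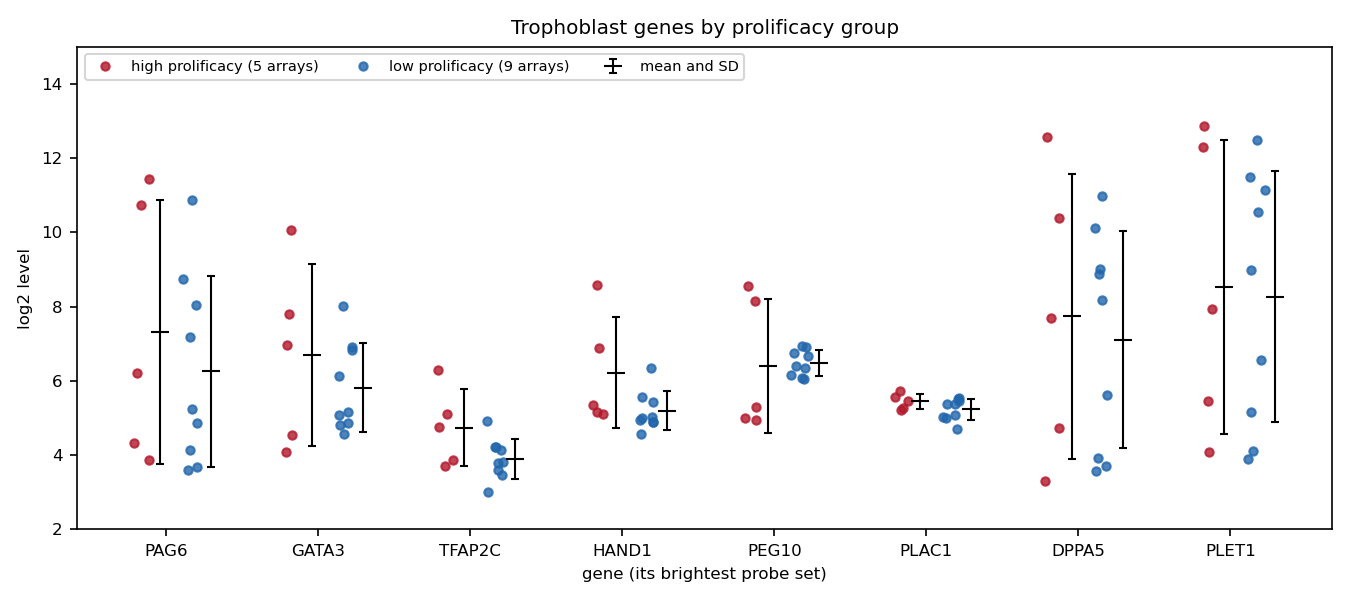
Log2 level (y axis) of the brightest probe set of each of the 8 genes (x axis), with 1 point per array, the 5 high prolificacy arrays in red left of the 9 low prolificacy arrays in blue, and bars for the mean and SD. The groups overlap for every gene, and PEG10 has high prolificacy points on both sides of the low prolificacy points.

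To ask which genes moved with PAG6, the level of each probe set was fitted on the level of PAG6 probe set 1 over the 14 arrays. The slope is in log2 units per log2 unit of PAG6. In limma 9 of the 16 other probe sets passed an adjusted p of 0.05, all rising, where 0.446% of all tested probe sets passed, 0.442% rising and 0.00417% falling. A total of 13 of the 16 had an unadjusted p under 0.05. The count holds 2 other probe sets of PAG6 itself, and without them it was 7 of 14, from 4 genes. The genes were chosen with earlier results of these data known, so the share of all tested is background only. The median slope was 0.30 over the 16, 0.28 over the 14 and -0.0049 over all tested. Correlations were computed for the same 16 relations with 100000 permutations, whose smallest possible p is 1e-05.

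DPPA5 and the brightest PLET1 probe set had slopes close to 1, a change about as large as that of PAG6 probe set 1. The DPPA5 slope was 1.04 ± 0.09 (SE, limma adjusted p = 1.15e-05), with Pearson r = 0.951 (permutation p = 1e-05) and Spearman rho = 0.978 (permutation p = 1e-05). PLET1 probe set 1 had a slope of 1.14 ± 0.10 (SE, limma adjusted p = 1.82e-05), with r = 0.947 (permutation p = 1e-05) and rho = 0.969 (permutation p = 1e-05). The dimmer PLET1 probe set 2 had a slope of 0.38 ± 0.05 (SE, limma adjusted p = 7.19e-04), with r = 0.909 and rho = 0.924 (permutation p = 1e-05 for both). The annotation gives the other PAG6 probe sets to the same gene, and whether they read the same transcript was not checked. PAG6 probe set 3 had a slope of 1.10 ± 0.05 (SE), with r = 0.988 and rho = 0.978 (permutation p = 1e-05 for both). Slopes differed between probe sets of 1 gene, for PAG6 as for PLET1. PAG6 probe set 2 had a slope of 0.64 ± 0.08 (SE), with r = 0.914 (permutation p = 6e-05) and rho = 0.912 (permutation p = 3e-05). It did not pass in low prolificacy alone (limma adjusted p = 0.224) or without the 3 arrays highest in PAG6 (limma adjusted p = 0.934). Without high 4 and low 4, the 2 arrays farthest from the median of PAG6, r was 0.927 for DPPA5, 0.939 for PLET1 probe set 1 and 0.875 for PLET1 probe set 2.

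Of the transcription factors, GATA3 had the closest relation to PAG6. Its probe set 1 had a slope of 0.56 ± 0.06 (SE, limma adjusted p = 6.34e-05), with r = 0.937 (permutation p = 2e-05) and rho = 0.890 (permutation p = 1e-04). Probe set 2 had a slope of 0.50 ± 0.06 (SE, limma adjusted p = 2.32e-04), with r = 0.923 (permutation p = 1e-05) and rho = 0.903 (permutation p = 6e-05). Probe set 4 also passed, at a slope of 0.30 ± 0.04 (SE, limma adjusted p = 6.07e-04), with r = 0.915 (permutation p = 1e-05) and rho = 0.851 (permutation p = 2e-04). On ranks, adjusted over all tested probe sets, it did not pass (permutation adjusted p = 0.073). Probe set 3, which varied least, had r = 0.745 (permutation p = 5e-04) and rho = 0.754 (permutation p = 0.0028), and it did not pass (slope 0.09, limma adjusted p = 0.209). Without high 4 and low 4, r was 0.921, 0.919 and 0.879 for the 3 probe sets that passed.

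HAND1 passed narrowly and TFAP2C narrowly did not. HAND1 had a slope of 0.30 ± 0.06 (SE, limma adjusted p = 0.032), with r = 0.814 (permutation p = 7e-05), rho = 0.727 (permutation p = 0.0043) and r = 0.778 without high 4 and low 4. It lost the call in 9 of the 14 fits that left out 1 array, with limma's adjusted p between 0.028 and 0.0995 over the 14, and on ranks (permutation adjusted p = 0.210) or with PAG6 probe set 3 on the x axis (limma adjusted p = 0.072). TFAP2C had a slope of 0.23 ± 0.05 (SE, limma adjusted p = 0.066), with r = 0.786 (permutation p = 5.4e-04) and rho = 0.798 (permutation p = 9.1e-04). It reached limma's threshold without high 5 (adjusted p = 0.028), with array weights (0.016), with the prolificacy group as covariate (0.040) and with trend and robust settings (0.0495). Its r was 0.645 without high 4 and low 4.

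PEG10 and PLAC1 did not pass. PEG10 probe set 1 had r = 0.701 (permutation p = 0.0045) and rho = 0.591 (permutation p = 0.029) at a slope of 0.25 ± 0.07 (SE, limma adjusted p = 0.219), and r = 0.573 without high 4 and low 4. The dim PEG10 probe sets 2 and 3 had r = 0.471 (permutation p = 0.089) and -0.274 (permutation p = 0.340), and rho = 0.459 (permutation p = 0.10) and -0.211 (permutation p = 0.465). PLAC1 probe set 1 had r = 0.639 (permutation p = 0.013), rho = 0.697 (permutation p = 0.0073) and limma's adjusted p of 0.380. PLAC1 probe set 2 had r = 0.499 (permutation p = 0.071), rho = 0.433 (permutation p = 0.122) and limma's adjusted p of 0.558. Without high 4 and low 4 these r were 0.338 and -0.497 for PEG10 and 0.496 and 0.228 for PLAC1.

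**Figure D3:**
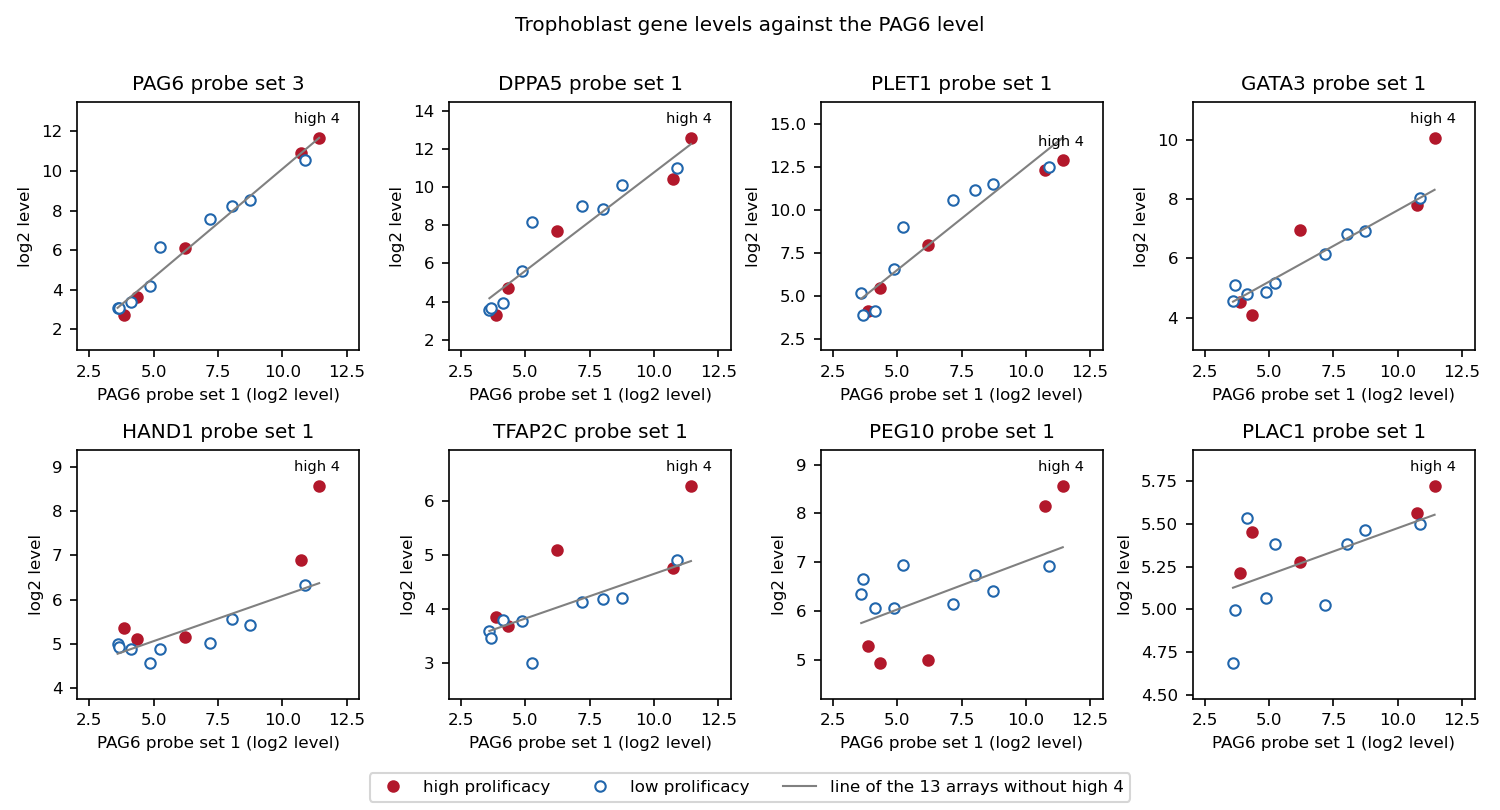
Log2 level of 8 probe sets (y axes) against the log2 level of PAG6 probe set 1 (x axis), with 1 point per array, filled for high and open for low prolificacy; the line is fitted to the 13 arrays without high 4. Of the 8, PAG6 probe set 3 has the highest r over the 14 arrays (0.988), and high 4 lies above the line for GATA3, HAND1, TFAP2C and PEG10 and below it for PLET1.

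Leaving out high 4 kept 8 of the 9 calls, with 0.292% of all tested probe sets passing. HAND1 was the call lost, with a slope of 0.20 (limma adjusted p = 0.058) and r = 0.833. Without high 4 the slope was 1.03 for DPPA5 (limma adjusted p = 1.54e-04), 1.19 for PLET1 probe set 1 (limma adjusted p = 9.12e-05) and 0.31 for PLET1 probe set 2 (limma adjusted p = 0.0019). GATA3 had slopes of 0.48 in probe set 1 (limma adjusted p = 1.49e-04), 0.41 in probe set 2 (limma adjusted p = 1.84e-04) and 0.25 in probe set 4 (limma adjusted p = 0.0023). The slopes of PLET1 probe set 2 and of these GATA3 probe sets were thus lower than with all arrays. TFAP2C had r = 0.723 and PEG10 probe set 1 had r = 0.590 without high 4. In a setting added after seeing the data, high 4, high 1 and low 4 were left out together, and 4 of the 16 passed, where 0.133% of all tested did. Those 4 were PAG6 probe set 3, GATA3 probe set 1 (slope 0.51, limma adjusted p = 0.048), DPPA5 (slope 1.32, limma adjusted p = 0.0017) and PLET1 probe set 1 (slope 1.53, limma adjusted p = 0.0011). Among the calls lost, the slope was 0.44 for GATA3 probe set 2 (limma adjusted p = 0.056), 0.23 for GATA3 probe set 4, 0.27 for PLET1 probe set 2, 0.39 for PAG6 probe set 2 and 0.09 for HAND1.

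Over these 11 arrays DPPA5 had r = 0.943 (permutation p = 2e-05) and rho = 0.955 (permutation p = 3e-05), and PLET1 probe set 1 had r = 0.951 (permutation p = 1e-05) and rho = 0.936 (permutation p = 9e-05). GATA3 probe set 1 had r = 0.887 (permutation p = 7.3e-04) and rho = 0.773 (permutation p = 0.0076). HAND1 had r = 0.557 (permutation p = 0.078) and rho = 0.445 (permutation p = 0.174), TFAP2C had r = 0.523 (permutation p = 0.099) and rho = 0.664 (permutation p = 0.031), and PEG10 probe set 1 had r = 0.230 (permutation p = 0.491) and rho = 0.218 (permutation p = 0.521). These permutation p-values are not adjusted over the 16 relations. The r of HAND1, TFAP2C and PEG10 probe set 1 was thus lower without the 3 highest arrays. With 11 arrays a weaker relation can go undetected. For DPPA5, PLET1 probe set 1 and GATA3 probe set 1, r stayed at 0.887 or higher.

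The relation was also present within low prolificacy alone. Over its 9 arrays 5 of the 16 probe sets passed, all rising, where 0.217% of all tested did, 0.208% rising and 0.00833% falling. PAG6 probe set 3, GATA3 probe sets 1 and 2, DPPA5 and PLET1 probe set 1 were those 5. GATA3 had r = 0.982 and 0.986 in these 2 probe sets (limma adjusted p = 2.99e-04 and 3.10e-04), DPPA5 had r = 0.936 (limma adjusted p = 0.0092) and PLET1 probe set 1 had r = 0.934 (limma adjusted p = 0.010).

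Whether slopes differed between the groups was tested with an interaction term, which 0 of the 16 probe sets passed in limma, where 0.0208% of all tested did and 3 of the 16 had an unadjusted p under 0.05. PEG10 probe set 1 had the largest difference in slope, high minus low, at 0.43 ± 0.08 (SE, limma adjusted p = 0.122), with a slope of 0.05 within low prolificacy. It passed without high 5 (0.41, limma adjusted p = 0.049). GATA3 probe set 2, at 0.29 ± 0.09 (SE, limma adjusted p = 0.456), passed without high 1 (0.42, limma adjusted p = 0.014).

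**Figure D4:**
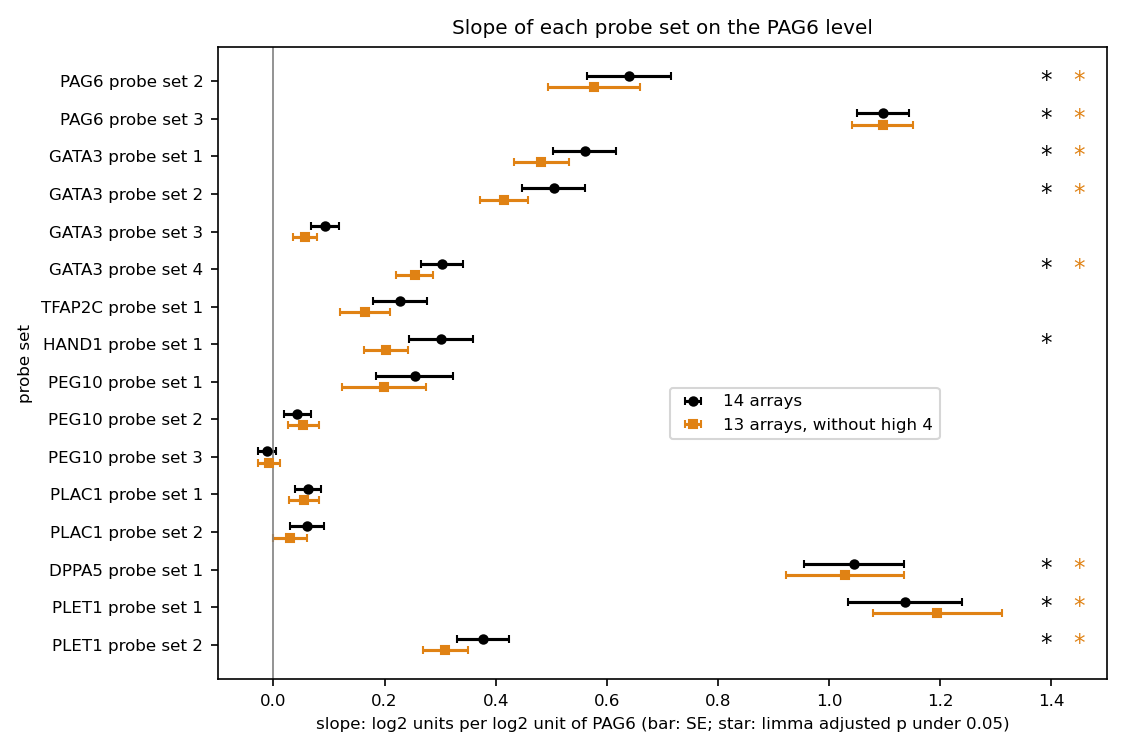
Slope of each of the 16 other probe sets on PAG6 probe set 1, in log2 units per log2 unit, with its SE, over all 14 arrays (black) and over the 13 without high 4 (orange); a star marks limma's adjusted p under 0.05. DPPA5, PLET1 probe set 1 and PAG6 probe set 3 lie near or above 1, the 3 GATA3 probe sets that passed had slopes between 0.30 and 0.56 over the 14 arrays and between 0.25 and 0.48 without high 4, and HAND1 has a star only with high 4.

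A probe set was called high in one array only where its highest array lay at least 1 log2 unit above the second highest, a description with no test. This held for 7 of the 17 probe sets, each time in high 4, where it held in high 4 for 0.921% and in any array for 2.78% of all tested. High 4 supplied 221 of the probe sets high in one array, and high 5 supplied 190. The gap was 2.24 and 2.05 for GATA3 probe sets 2 and 1, 1.68 for HAND1, 1.59 for DPPA5, 1.42 for PLET1 probe set 2, 1.19 for TFAP2C and 1.08 for PAG6 probe set 2. Just below the limit of 1 lay GATA3 probe set 4, at 0.93. The gap was only 0.55 for PAG6 probe set 1 and 0.39 for PLET1 probe set 1, since low 4 and high 1 were nearly as high. At a limit of 0.5 it held for 11 of the 17, where it held for 12.9% of all tested, and at a limit of 2 for 2 of the 17, against 0.246% of all tested. Without high 4, 1 of the 17 met the limit of 1, where 2.13% of all tested did. This was PEG10 probe set 1, which was not among the 7, with high 1 standing 1.22 above the next array.

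For 8 of the 16 other probe sets the level of high 4 lay at least 1 unit above the line that the other 13 arrays gave for its PAG6 level. The share over all tested probe sets was not computed. High 4 had the highest PAG6 level, so its distance extends the line beyond the other 13 arrays. By the same measure low 6 lay farther off in PAG6 probe set 2, at -1.75. In PEG10 probe set 1 high 5 lay farther off, at -1.45. Low 7 lay farther off in PAG6 probe set 3, at 1.42, in DPPA5, at 2.52, and in PLET1 probe set 1, at 2.44. In high 4, HAND1 lay 2.20 above the line of the other arrays, whose own residual SD was 0.37. GATA3 probe set 2 lay 2.01 above it (residual SD 0.41), GATA3 probe set 1 lay 1.76 above it (residual SD 0.47) and TFAP2C lay 1.39 above it (residual SD 0.43). DPPA5 lay 0.34 above its line (residual SD 1.05) and PLET1 probe set 1 lay 1.31 below it (residual SD 1.16). PLET1 probe set 2 lay 1.5 above its line (residual SD 0.38), PAG6 probe set 2 lay 1.41 above it (residual SD 0.81), PEG10 probe set 1 lay 1.26 above it (residual SD 0.74) and GATA3 probe set 4 lay 1.11 above it (residual SD 0.31). PAG6 probe set 3 lay 0.01 above its line. Probe sets of PAG6 and of PLET1 therefore differed in where high 4 lay, but not always beyond the scatter of the other arrays. The other 13 lay between -1.75 and 1.63 in PAG6 probe set 2 and between -1.60 and 2.44 in PLET1 probe set 1. High 5 lay 1.15 above the line for GATA3 probe set 1 and 1.07 above it for TFAP2C.

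**Figure D5:**
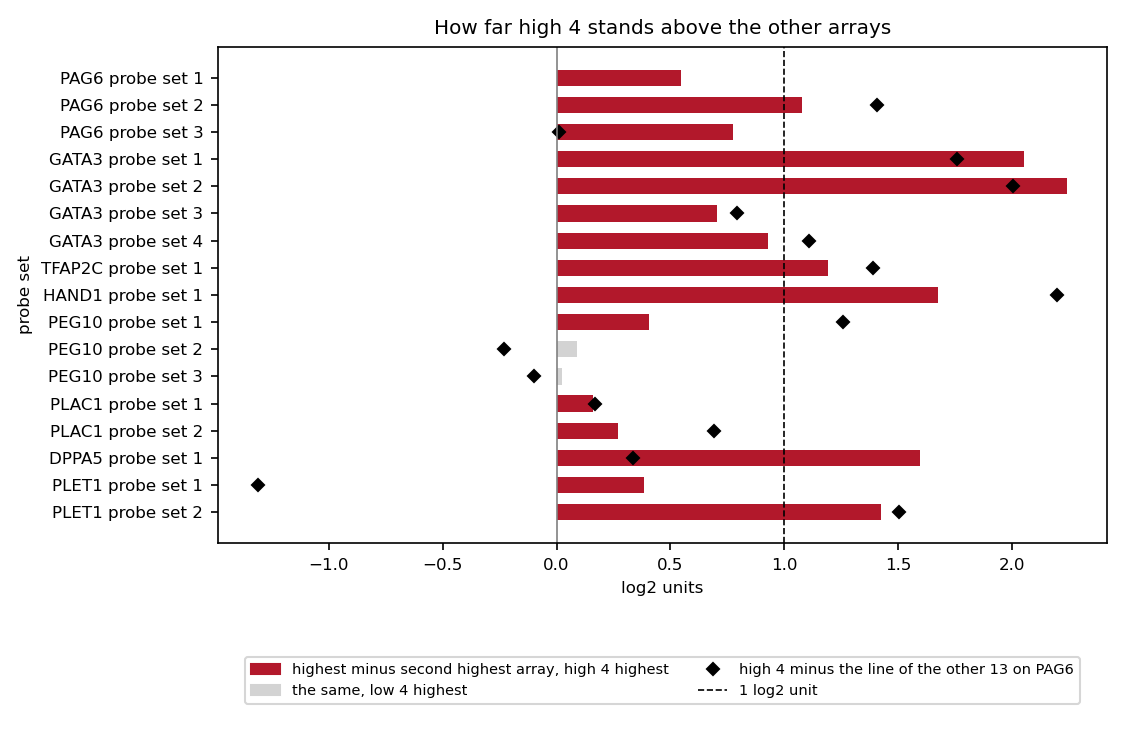
For each of the 17 probe sets (rows), bars give the gap in log2 units between the highest and the second highest array, red where high 4 and grey where low 4 was highest, diamonds give the distance of high 4 from the line of the other 13 arrays on PAG6, and the dashed line is the limit of 1. The 7 bars past the limit are all red, and the diamond of HAND1 lies farthest to the right at 2.20, while that of PLET1 probe set 1 lies at -1.31.

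The mean level of plasma protein genes of the yolk sac and fetal liver was also highest in high 4. The mean of the 13 such genes on the array, centred on each gene, was between -0.66 and 3.31 in high prolificacy, with high 4 at 3.31, against -1.10 to 1.49 in low prolificacy. SERPINA1, which codes for the protease inhibitor alpha-1-antitrypsin, stood 5.14 above the next array in high 4, AHSG, or fetuin A, 4.66, and AFP, or alpha-fetoprotein, 4.33. A total of 6 of the 13 were high in high 4 only, by the same limit of 1, where 0.921% of all tested were. TF, or transferrin, was high in low 3 only (gap 1.32) and FGB, a fibrinogen chain, in low 5 only (gap 1.28). The part of such tissue in the trophoblast gene levels of high 4 was not tested. With PAG6, 1 of the 13 rose, where 0.442% of all tested did, and 6 of the 13 had an unadjusted p under 0.05. The 1 was the apolipoprotein APOA2 (slope 0.37, limma adjusted p = 0.014). The median slope of the list was 0.28, and AFP had a slope of 0.46 (limma adjusted p = 0.272).

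Muscle and epithelium markers differed between the groups, and 0 of them passed the test against PAG6. Over 11 smooth muscle genes, all 11 lower in high prolificacy, the list mean was -3.81 to 0.01 in high and 0.82 to 2.11 in low prolificacy. Over 11 epithelium genes, 7 of them higher in high prolificacy, it was 0.67 to 1.80 in high and -2.51 to 0.15 in low prolificacy. The median slope on PAG6 was -0.0043 for the smooth muscle genes and 0.072 for the epithelium genes, and 0 of either list had an unadjusted p under 0.05. T and NK cell genes, listed because GATA3 is a T cell factor, had a median slope of 0.019, and 0 of 7 passed in limma, with 1 at an unadjusted p under 0.05. Of 6 gland secretion, 4 stroma, 8 endothelium and 5 red cell genes, 0 passed against PAG6 in limma either, with 3, 1, 0 and 1 at an unadjusted p under 0.05. The 3 gland genes were SPP1 (r = 0.709), ACP5 (r = 0.655) and UPTI (r = 0.524), and all 6 gland genes had rising slopes, 0.042 to 0.56. At a share of 0.446% of all tested, 0 calls in lists this short say little about these cell types. With the smooth muscle and epithelium means as covariates 11 of the 16 trophoblast gene probe sets passed against PAG6, where 0.854% of all tested did, more than the 0.446% without covariates. This fit brought TFAP2C (limma adjusted p = 0.015) and PEG10 probe set 1 (limma adjusted p = 0.039) past the threshold, in a setting added after seeing the data. The 3-prime minus 5-prime differences of 11 pairs of control probe sets, used as a sign of RNA integrity, had r between -0.57 and 0.57 with PAG6. Some pairs were of the same gene. All actin and Gapdh pairs had a negative r, between -0.57 and -0.25, and the pairs of the other controls had r between 0.03 and 0.57, highest for IRP. For 2 of the 11 the unadjusted permutation p was under 0.05, and the lowest after Benjamini-Hochberg adjustment over the 11 was 0.195. The part of RNA integrity in the PAG6 relations was not tested.

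The genes whose pattern was most like PAG6 were taken as the 10 with the highest r over the 14 arrays, members left out. They were PPAG3, a further pregnancy-associated glycoprotein (r = 0.987), PLBD1, a phospholipase B-like protein (r = 0.979), LOC100523945 (r = 0.977), ATP2A2, a calcium pump (r = 0.977), RNASE1, a secreted ribonuclease (r = 0.966), FOLR1, a folate receptor (r = 0.955), CYP11A1 (r = 0.952), STAR (r = 0.951), HSD3B1 (r = 0.901) and PNPLA3, a lipase (r = 0.898). CYP11A1, STAR and HSD3B1 make up the route from cholesterol to progesterone. These genes were chosen for their r on the same arrays, so no test is given. Without high 4 the 10 highest shared 9 genes with this set, with EDDM3B in place of PNPLA3, and CYP11A1 had the highest r, 0.991. Other probe sets of ATP2A2 had r of 0.23 to 0.53 and the other FOLR1 probe set 0.35, so for these genes the likeness rested on 1 probe set. The 3 other PLBD1 probe sets had r of -0.42 to 0.96, and the other probe sets of STAR and HSD3B1 had 0.76 and 0.80. FOLR1 also stands in the gland secretion list, by the brighter probe set that did not pass. For PPAG3, near-identical family members can share probes with PAG6, and the 2 genes lie near each other, with 4 annotated genes between them in assembly Sscrofa11.1.

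The 3 steroid genes were also higher in high 4 than in the next array. CYP11A1, the enzyme of the first step from cholesterol, had a level of 9.85 in high 4 and 7.23 in the second highest array. STAR, which carries cholesterol into mitochondria, had 8.42 and 6.26 in the same 2 places, and HSD3B1, which makes progesterone, had 9.59 and 7.24. Between high and low prolificacy these did not pass: the difference was 1.13 ± 1.00 for CYP11A1 (SE, limma adjusted p = 0.592).

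Other lists of trophoblast and conceptus genes were set beside the 8. Of 12 further trophoblast transcription factors on the array, 0 passed the test against PAG6 in limma (2 at an unadjusted p under 0.05), with a median slope of 0.044, and 3 were higher in high prolificacy. Over all tested, 0.446% passed against PAG6 and 3.5% were higher in high prolificacy. At such a share, 0 calls in a list this short says little about these factors. Those 3 were PPARG, a nuclear receptor of lipid metabolism, at 1.63 ± 0.29 (SE, limma adjusted p = 0.0037), ELF3, an epithelial ETS factor, at 2.47 ± 0.54 (SE, limma adjusted p = 0.012), and DLX5, a homeobox factor (limma adjusted p = 0.048). ELF3 also stands in the epithelium list. Of 21 genes of secretion, steroid synthesis and fusion, 2 rose with PAG6, STAR and HSD3B1, and 9 had an unadjusted p under 0.05 in that limma test. In the same list 5 were higher in high prolificacy, among them the keratins KRT8 and KRT19, which are also epithelium markers. In that list IFNG, the interferon that pig trophoblast secretes, CYP17A1 and HSD17B1 were high in high 4 only, as were STAR and HSD3B1.

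Of 11 imprinted genes of placenta, 0 passed against PAG6 in limma (1 at an unadjusted p under 0.05), and NDN, which codes for necdin, and DCN, the proteoglycan decorin, were lower in high prolificacy, by -1.33 and -0.56 (limma adjusted p = 0.0077 and 0.044). Over all tested, 0.446% passed against PAG6, and 3.5% were higher and 4.35% lower in high prolificacy. IGF2, the imprinted growth factor, had a slope of 0.13 (limma adjusted p = 0.331). Of 5 pluripotency and germ cell genes, 0 passed against PAG6 in limma (1 at an unadjusted p under 0.05). ZFP42, also called REX1, came closest, with a slope of 0.32 (limma adjusted p = 0.085), and was high in high 4 only. KIT, a receptor tyrosine kinase of germ cells, was higher in high prolificacy by 0.47 (limma adjusted p = 0.031), and KLF4, a zinc finger factor, differed by -0.25 (limma adjusted p = 0.460).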

How the data were processed

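Total RNA of uterus was hybridized to Affymetrix porcine arrays, 1 per sow, and the labels call the samples biological replicates. Per the submitters' processing notes, the deposited log2 values come from RMA, whose version is not given in the sources used here. It equalises the arrays' distributions, so a change in most transcripts at once would be lost. Array medians lay between 5.72 and 5.84. Of 24123 probe sets, 124 controls were left out, and 23999 were tested without a filter on dim ones. Names came from a platform annotation that may be dated, for the 10069 probe sets with 1 symbol only; the RefSeq genes of Sscrofa11.1 held all 8 gene numbers. The labels give no batch, and the number of arrays limits the precision.

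Group differences and slopes on PAG6 were fitted with limma 3.58.1 in R 4.3.3 (lmFit, eBayes, two-sided), with Benjamini-Hochberg adjustment over all tested probe sets and a threshold of 0.05. Permutation tests were two-sided. The PAG6 probe set on the x axis was left out of the slope fits. The fits were also run on simulated data with independent normal noise for each probe set. That noise held no array like high 4 and no relation between genes, so it cannot vouch for the calls here. Named were all probe sets of the 8 genes, the 10 genes of highest r with PAG6 with and without high 4, and from each further trophoblast list the 2 of smallest p, plus genes named beside small counts after their values were seen. A list took the brightest probe set with 1 symbol per gene. The 8 genes and the lists were chosen with earlier results of these data known. Alternatives were cyclic loess, array median subtraction, the 12000 brightest probe sets, eBayes with trend and robust settings, array weights, covariates, the replicate block, ranks, the other PAG6 probe sets, other gap limits and leaving out each array.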

Additional observations from a re-analysis of the deposited data

How the results depend on the processing

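In the comparison of prolificacy groups, 0 of the 17 probe sets passed under the alternatives run (8 of the 17 are among the 12000 brightest), while the count over all tested probe sets was 3060 with array weights, 35 with the replicate block, 0 with the smooth muscle and epithelium covariates (which explained 83.3% of the group) and 944 to 2650 with 1 array left out, lowest without high 3 and 1002 without high 2. Signs turned as follows. With PAG6 as covariate PAG6 probe set 3 was -0.24, GATA3 probe set 2 -0.14, DPPA5 -0.49 and PLET1 probe set 1 -0.97. With array weights PAG6 probe sets 1 and 3 were -0.54 and -0.95, GATA3 probe sets 1 and 2 -0.092 and -0.46, DPPA5 -1.44 and PLET1 probe set 1 -1.92. With the replicate block PEG10 probe set 1 was 0.068, DPPA5 -0.19 and PLET1 probe set 1 -0.51, and with the smooth muscle and epithelium covariates PEG10 probe set 1 was 2.83; in that fit PAG6 probe set 1 was 5.78, PLET1 probe set 1 5.63 and DPPA5 4.87, all with limma's adjusted p near 1. With 1 array left out the ranges were -0.24 to 2.00 for PAG6 probe set 3, -0.50 to 1.01, -0.033 to 0.31 and -0.029 to 0.78 for GATA3 probe sets 2, 3 and 4, -0.63 to 0.27 for PEG10 probe set 1, -0.58 to 1.74 for DPPA5 and -0.83 to 1.37 for PLET1 probe set 1. The sign turned without high 4 for all of these but PEG10, whose sign turned without high 2, high 3 or high 5; it also turned without high 1 for PAG6 probe set 3, DPPA5 and PLET1 probe set 1, and without low 3, low 8 or low 9 for PLET1 probe set 1. Against PAG6 the count over all tested was 41 among the 12000 brightest, 52 in low prolificacy alone, 57 on ranks, 205 with the 2 tissue covariates, 32 without the 3 arrays highest in PAG6 and 70 to 120 with 1 array left out, 70 without high 4. Among the 16 probe sets it was 5 in low prolificacy alone, 4 without the 3 arrays and 8 to 10 with 1 array left out. PEG10 probe set 3 had a slope of 0.0049 in low prolificacy alone and PEG10 probe set 2 one of -9.3e-05 without the 3 arrays. The slope difference was called for 0 to 1 of the 16 with 1 array left out, 1 without high 1 and 1 without high 5. High in one array only were 11 of the 17 at a limit of 0.5 (12.9% of all tested), 2 at a limit of 2 (0.246%) and 1 without high 4 (2.13%). Deviations of same-numbered arrays from their group means correlated between -0.247 and 0.421, the highest for number 4. Only for number 4 was the same-numbered low array also the closest. Whether replicate numbers pair any samples was not tested further. The cause of these changes was not tested. The number of arrays limits all of these values.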
